A study of Mus musculus with 2 samples.

Results

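The tumour necrosis factor (TNF) family ligands that lymphocytes and myeloid cells display or release were followed in cells from mouse hearts after myocardial infarction (MI, loss of heart muscle downstream of a blocked coronary artery). The 9 genes were taken by symbol, out of 55357 genes in the count tables, and are Cd40lg, Tnfsf8, Tnfsf9, Tnfsf10, Tnfsf11, Tnfsf14, Fasl, Lta and Ltb. One library came from wild-type (WT) mice with MI that received a PD1-blocking antibody, PD1 (gene Pdcd1) being a brake on activated T cells, and the other from WT mice with MI that received anti-IgG, the comparison antibody. Hearts were taken on day 7 after MI in both groups, and the cells are labelled T cells. Strain, age, sex, antibody dose, clone and the number of hearts behind each library are not given in the sources used here. With 1 library per group there is no replicate check and no test between the groups. All intervals are 95% intervals for counting error only, and they treat each UMI (unique molecular identifier, 1 captured RNA molecule) as drawn singly. Levels are UMIs of a gene per 1000000 UMIs of the cells concerned (CPM).

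Most TNF family ligands are made as trimers on the cell surface, and several are also shed or secreted. They act on receptors of the TNF receptor family, which recruit TRAF adaptors that lead to NF-kappaB and survival signals, or, for receptors with a death domain, FADD and caspase-8 that lead to apoptosis. Activated T cells are a main source: CD40 ligand licenses B cells and dendritic cells, the CD30, 4-1BB and HVEM ligands act on costimulatory receptors, Fas ligand and TRAIL kill target cells, RANKL drives osteoclasts and acts on dendritic cells, and the lymphotoxins organise lymphoid tissue. PD1 blockade removes an inhibitory signal that dampens T cell receptor and CD28 signalling.

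The anti-PD1 library held 6026 barcodes and 29046341 UMIs, against 4380 barcodes and 22806806 UMIs in the anti-IgG library. Filtering for 300 or more genes, 500 or more UMIs and no more than 10% of UMIs from mitochondrial genes left 5835 anti-PD1 and 4309 anti-IgG cells with medians of 3858 and 4079 UMIs. The 2 libraries shared 46 barcodes among the kept cells. Source cells were separated by marker UMIs into exclusive gates. These held 1304 anti-PD1 and 1398 anti-IgG CD4 cells, 1271 and 877 CD8 cells, 172 and 83 cells with natural killer (NK) markers, 669 and 306 gamma-delta cells, and 1607 and 1098 other Cd3+ cells with no coreceptor UMI or with UMIs of both coreceptors. Outside the T lineage they held 111 anti-PD1 and 47 anti-IgG macrophage cells, 118 and 102 dendritic cells, and 128 and 55 B cells. The Cd3+ cells of the 5 lymphocyte gates, 5013 anti-PD1 and 3759 anti-IgG cells, are called Cd3+ cells. Another 339 anti-PD1 and 233 anti-IgG Cd3 cells also carried macrophage, B, endothelial or fibroblast markers, with medians of 9074 and 10270 UMIs, and were left out of the gates.

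The gates were checked against genes that had not set them. In the gamma-delta gate, Il17a was found in 60.2% of anti-PD1 and 48.0% of anti-IgG cells. Trac, the alpha-beta receptor constant gene, was also found there, in 19.28% of anti-PD1 and 26.47% of anti-IgG cells. Nkg7, a granule gene of cytotoxic cells, was found in 83.7% and 81.4% of CD8 cells and in 97.1% and 100% of NK-marker cells. It was also found in 26.15% and 33.19% of CD4 cells and in 31.36% and 35.25% of other Cd3+ cells. Of the NK-marker cells, 162 of 172 anti-PD1 and 80 of 83 anti-IgG cells had a Cd3 UMI, so this gate was mainly Cd3+ cells that carry NK receptors and is called by its markers. The dendritic gate was mostly cells with the plasmacytoid marker Siglech, 89 anti-PD1 and 69 anti-IgG cells, beside 29 and 33 without it.

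The members lie on 6 chromosomes (mm10, gene models of GENCODE M21). Ltb (chr17:35194439-35196320, plus strand) and Lta (chr17:35203165-35205351, minus strand) flank Tnf within 10913 bases, and Tnfsf9 (chr17:57105325-57107757, plus strand) and Tnfsf14 (chr17:57189492-57194177, minus strand) lie on the same chromosome. The others are Tnfsf11 (chr14:78277445-78308043, minus strand), Tnfsf10 (chr3:27317028-27342427, plus strand), Cd40lg (chrX:57212143-57224042, plus strand), Tnfsf8 (chr4:63831308-63861347, minus strand) and Fasl (chr1:161780689-161788495, minus strand). Tnfsf9 overlaps Gm11110 on the opposite strand, and Lta and Ltb each overlap a microRNA gene on their own strand.

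Promoter windows for 7 of the 9 members were taken from RefSeq (GRCm38.p6, the assembly behind mm10), each from 250 bases before to 50 bases after the annotated start. The 3 printed here belong to Tnfsf11 and Tnfsf10, whose levels in Cd3+ cells differed past 1.5-fold in opposite directions between the libraries, and to Ltb, the member seen in the largest share of Cd3+ cells. The 250 bases before the start are given 5′ to 3′ on the gene's strand, at chr14:78308044-78308293 for Tnfsf11 (minus strand), chr3:27316827-27317076 for Tnfsf10 (plus strand) and chr17:35194257-35194506 for Ltb (plus strand). For Tnfsf10 and Ltb, the RefSeq start lies inside the GENCODE gene model given above, so the last printed bases fall within that model. Capitals mark GGAAA, the core bound by NFAT, on either strand, and, in Ltb, the kappaB consensus that overlaps it.
Tnfsf11: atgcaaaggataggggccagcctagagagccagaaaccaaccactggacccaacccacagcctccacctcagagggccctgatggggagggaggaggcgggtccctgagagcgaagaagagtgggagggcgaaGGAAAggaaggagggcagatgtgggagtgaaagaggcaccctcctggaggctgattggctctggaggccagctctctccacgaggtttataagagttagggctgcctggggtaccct
Tnfsf10: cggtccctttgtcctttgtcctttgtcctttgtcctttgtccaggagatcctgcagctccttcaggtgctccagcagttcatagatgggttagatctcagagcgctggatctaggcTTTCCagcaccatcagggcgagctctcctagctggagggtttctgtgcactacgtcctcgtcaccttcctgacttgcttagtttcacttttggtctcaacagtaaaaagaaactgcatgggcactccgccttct
Ltb: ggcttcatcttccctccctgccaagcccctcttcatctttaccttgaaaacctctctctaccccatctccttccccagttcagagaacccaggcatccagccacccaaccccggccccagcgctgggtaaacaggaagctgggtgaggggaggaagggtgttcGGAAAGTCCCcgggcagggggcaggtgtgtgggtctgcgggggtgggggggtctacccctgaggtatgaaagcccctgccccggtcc
GGAAA, searched on both strands of the 300-base windows, was found in all 7 members with a window and in 61.3% of all 32851 windows. The kappaB consensus was found in 1 of the 7, Ltb, starting at base 164 of its window, and in 5.80% of all windows. AP-1 (TGANTCA) was found in Tnfsf14 only and in 7.81% of all windows. The cyclic AMP element (TGACGTCA, 1.79% of all windows), the core of the interferon-stimulated response element (3.44%) and the Nr4a element (AAAGGTCA, 1.51%) were found in 0 of the 7. A match is a description of these letters, and its absence says only that they are not in the window.

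The source cells differed between ligands, and some ligands shared them. Cd40lg and Tnfsf8 had their highest CPM in CD4 cells. For Tnfsf8, the CD4 interval overlapped that of other Cd3+ cells in both libraries and that of CD8 cells in the anti-IgG library. Fasl and Tnfsf10 were highest in CPM in NK-marker cells, Tnfsf14, Lta and Ltb in gamma-delta cells, and Tnfsf9 in macrophage cells of the anti-PD1 library. For Tnfsf10, the NK-marker interval overlapped that of the few endothelial cells in both libraries. Tnfsf11 was spread over CD4, gamma-delta and other Cd3+ cells. B cells carried Ltb, with 240 anti-PD1 and 134 anti-IgG UMIs, and at most 3 UMIs of any other member in either library.

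**Figure D1:**
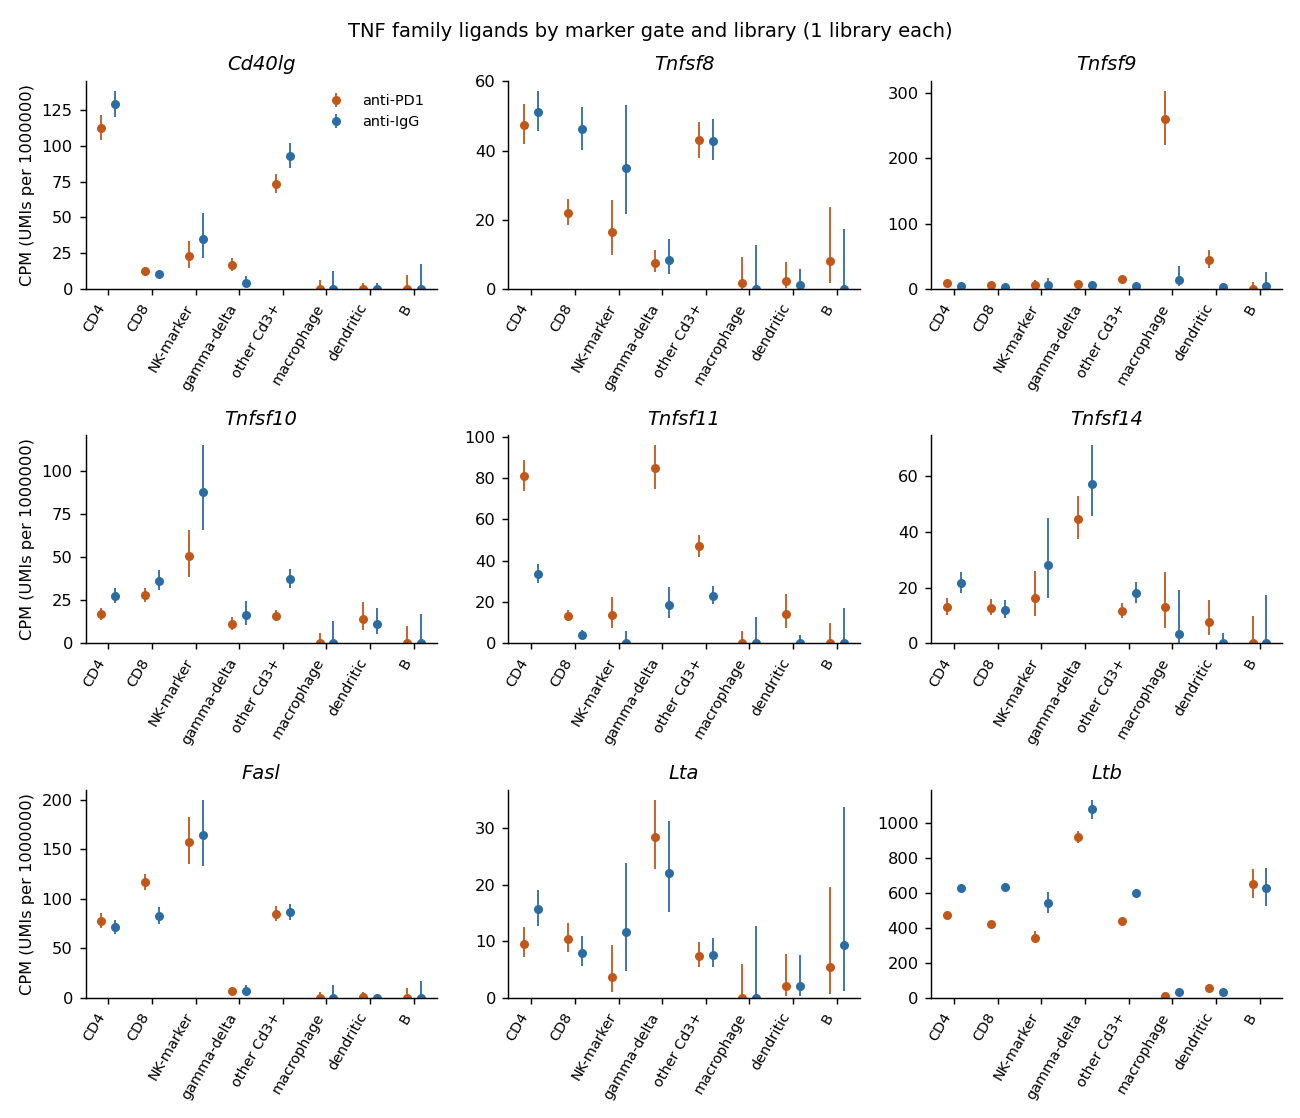
CPM of each ligand within the gate (y axis, linear, own scale per gene) in 8 marker gates (x axis), with anti-PD1 left of anti-IgG and bars for exact Poisson 95% intervals; each point is 1 library. Tnfsf11 stood higher in the anti-PD1 library in the CD4, CD8, gamma-delta and other Cd3+ gates, with intervals that did not overlap, and Ltb stood lower in the 5 lymphocyte gates.

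Cells that should lack a ligand served as the measure of free RNA. In the macrophage gate, with medians of 5356 anti-PD1 and 5188 anti-IgG UMIs per cell, Cd40lg, Tnfsf10, Tnfsf11, Fasl and Lta each had 0 UMIs in 111 anti-PD1 and 47 anti-IgG cells, which allows shares of cells with a UMI of up to 2.70% and 6.38% (3 cells of the total, the limit used for counts of 0). In the B gate, with medians of 2380 and 2730 UMIs, Cd40lg, Tnfsf10, Tnfsf11, Tnfsf14 and Fasl were at 0 in 128 and 55 cells. Ltb, the most widely seen member, was found in 7.21% (3.16 to 13.7) of anti-PD1 and 6.38% (1.34 to 17.5) of anti-IgG macrophage cells, against 70.6% and 83.4% of Cd3+ cells, whose medians were 3746 and 3968 UMIs. Macrophage markers summed to 17.7 CPM in anti-PD1 and 10.9 in anti-IgG Cd3+ cells, with 10 of 10 markers detected in both, and their part in the ratios was not tested.

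**Figure D2:**
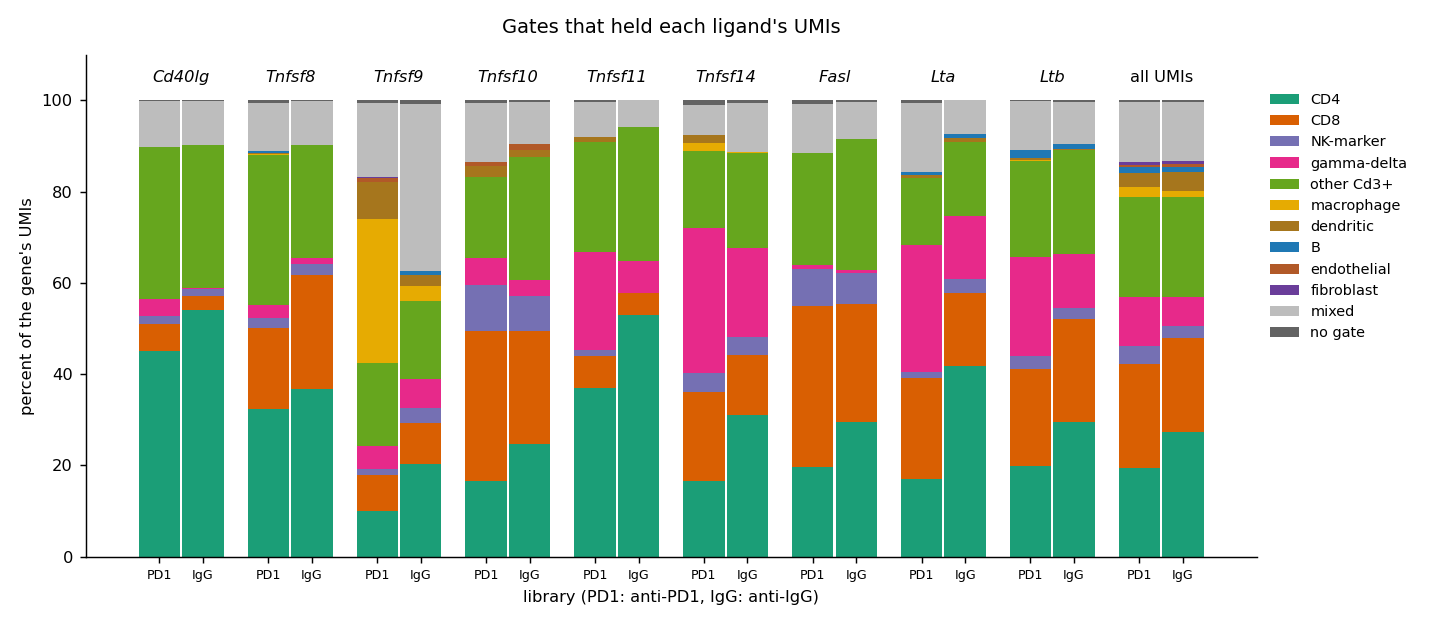
Share of each ligand's UMIs (y axis, percent) held by each gate in the anti-PD1 library (left bar of a pair) and the anti-IgG library (right bar), over all kept cells; the last pair gives the shares of all UMIs. CD4 cells held 45.1% of anti-PD1 and 54.0% of anti-IgG Cd40lg UMIs, and macrophage cells held 31.6% and 3.25% of Tnfsf9 UMIs.

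Over all Cd3+ cells, Tnfsf11 and Tnfsf9 were higher and Tnfsf10 was lower in the anti-PD1 library by more than 1.5-fold, while the other 6 ligands lay within it. Tnfsf11 had 1104 anti-PD1 and 368 anti-IgG UMIs, a ratio of levels of 2.38 (2.11 to 2.68). Tnfsf9 had 213 and 69 UMIs, a ratio of 2.45 (1.86 to 3.26). Tnfsf10 had 466 and 602 UMIs, a ratio of 0.614 (0.543 to 0.694). Of 11975 genes with at least 50 summed UMIs in these cells, 6.30% were higher and 9.78% lower by at least 1.5-fold, beside 2 of 9 members higher and 1 of 9 lower, counts that rest on 3 genes. The median log2 ratio was -0.31 over the members and -0.10 over all measured genes.

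Inside gates the picture was similar but not the same. CD4 cells had 2 members higher and 3 lower of 9, beside 5.16% and 9.80% of all measured genes. In CD8 cells 2 were higher and 2 lower of 9, beside 6.98% and 7.35%. NK-marker cells had 0 higher and 2 lower of the 3 members with enough UMIs, beside 9.70% and 10.1%. Gamma-delta cells had 2 higher and 0 lower of 6, beside 7.04% and 8.59%. The other Cd3+ cells had 2 higher and 2 lower of 9, beside 5.59% and 10.8%. Dendritic and B cells each had enough UMIs of Ltb alone, which was past the fold in dendritic cells (7.78% of genes higher, 13.9% lower) and not in B cells (19.0% and 6.10%).

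**Figure D3:**
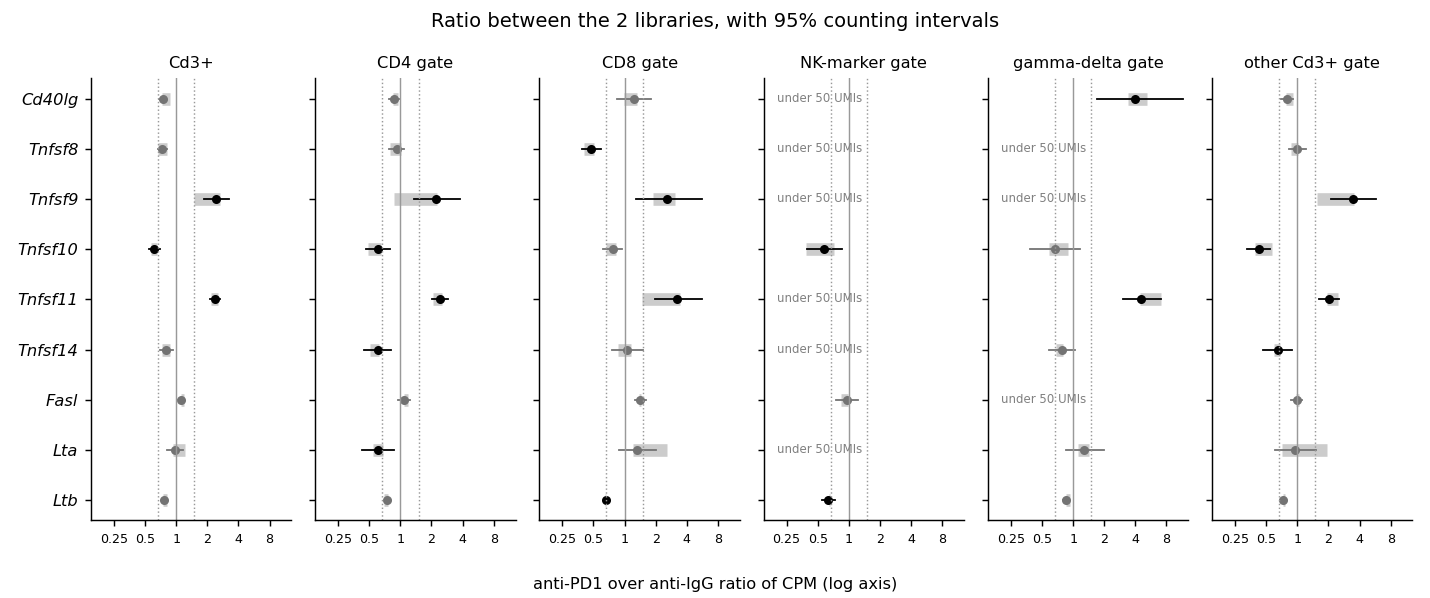
Ratio of CPM, anti-PD1 over anti-IgG (x axis, log scale), for the 9 ligands (rows) in Cd3+ cells and 5 gates; points carry exact 95% counting intervals, grey bands span the alternative settings, dotted lines mark 1.5-fold, and black points lie past it. Tnfsf11 lay right of 1.5-fold in Cd3+, CD4, CD8, gamma-delta and other Cd3+ cells, and the Tnfsf10 points lay left of 1 in all 6 panels.

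Tnfsf11 encodes RANKL, the ligand of Tnfrsf11a (RANK) and of the decoy receptor Tnfrsf11b (osteoprotegerin). In CD4 cells it had 448 anti-PD1 and 207 anti-IgG UMIs, or 80.9 and 33.5 CPM, a ratio of 2.42 (2.04 to 2.86). Among gates with at least 50 summed UMIs, the largest ratio was in gamma-delta cells, where it had 260 and 27 UMIs, or 84.8 and 18.6 CPM, a ratio of 4.55 (3.05 to 7.03). In the anti-IgG library the CD4 level was above the gamma-delta level, with intervals that did not overlap, whereas in the anti-PD1 library the CD4 and gamma-delta levels did not differ beyond their intervals. CD8 cells had 87 and 19 UMIs, a ratio of 3.24 (1.96 to 5.64), which was 1.49 (0.528 to 4.78) when every cell was thinned to 1000 UMIs. Other Cd3+ cells had 294 and 115 UMIs, a ratio of 2.03 (1.63 to 2.54). NK-marker cells had 15 anti-PD1 UMIs in 8 of 172 cells and 0 anti-IgG UMIs in 83 cells, or 13.6 CPM against a floor of 4.97 CPM (3 counts in that library), and the exact lower limit of the ratio was 1.965.

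Both the number of Tnfsf11 cells and the UMIs in each differed between the libraries. Among gamma-delta cells, 103 of 669 anti-PD1 cells (15.4%) and 24 of 306 anti-IgG cells (7.84%) had a Tnfsf11 UMI. Thinned to 1000 UMIs per cell, these shares were 5.86% (4.20 to 7.92) and 0.980% (0.203 to 2.84), and the ratio of levels was then 7.05 (2.27 to 35.4). Cells with the gene carried on average 2.52 anti-PD1 and 1.12 anti-IgG UMIs of it, and the 5 cells with the most held 49 of 260 and 8 of 27 UMIs. Macrophage markers summed to 7.18 and 7.60 CPM in this gate, and B cell markers to 57.7 and 96.7.

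CD4 cells without a Foxp3 UMI held most Tnfsf11 UMIs of the CD4 gate, and they were also most of its cells. They made up 1170 of its 1304 anti-PD1 and 1274 of its 1398 anti-IgG cells. Foxp3 encodes the defining factor of regulatory T cells. Cells without it had 400 anti-PD1 and 176 anti-IgG Tnfsf11 UMIs, a ratio of 2.61 (2.18 to 3.14), and cells with it had 48 and 31 UMIs, a ratio of 1.44 (0.901 to 2.35). The intervals overlapped, and whether these ratios differ was not tested. CD4 cells with Tnfsf11 (200 anti-PD1 and 138 anti-IgG cells) were deeper than those without, with medians of 4628 and 4814 UMIs against 3538 and 3734, so their other genes were read at 1000 UMIs per cell. Cxcr3, a chemokine receptor of effector T cells, was then found in 16% and 27.5% of cells with Tnfsf11, against 8.66% and 14.3% of cells without. Cd40lg was found in 14.5% and 19.6% against 10.0% and 12.1%, with intervals that overlapped in the anti-PD1 library.

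Cd40lg encodes the ligand of Cd40 that helper T cells show to B cells and antigen-presenting cells. It was lower over all anti-PD1 Cd3+ cells, with 1240 and 1333 UMIs and 55.1 against 74.7 CPM, a ratio of 0.738 (0.682 to 0.798). CD4 cells had the highest level in both libraries, 112.5 CPM in anti-PD1 and 129 in anti-IgG, followed by other Cd3+ cells at 73.4 and 92.8. CD4 cells made up 22.4% of anti-PD1 and 32.4% of anti-IgG cells, and with the mix of gates held alike in both libraries the Cd3+ ratio was 0.869. Within the CD4 gate the ratio was 0.872 (0.784 to 0.969). CD8 cells had few Cd40lg UMIs, 12.3 and 10.1 CPM.

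Gamma-delta cells went the other way for Cd40lg, on few UMIs. They had 51 anti-PD1 UMIs in 27 of 669 cells and 6 anti-IgG UMIs in 5 of 306 cells, a ratio of 4.01 (1.72 to 11.4). The 5 anti-PD1 cells with the most held 20 of the 51 UMIs, and without the top cell of each library the ratio was 5.18 (1.89 to 19.8). At 1000 UMIs per cell, 1.201% (0.520 to 2.35) of anti-PD1 and 0 of 306 anti-IgG gamma-delta cells kept a UMI, which allows an anti-IgG share of up to 0.980%. Trdc, the gamma-delta receptor constant gene, was found in 48.1% of the 27 anti-PD1 cells with Cd40lg and in 77.0% of the 642 without it, and Il17a in 51.9% and 60.6%.

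Tnfsf8 encodes CD30 ligand. Its levels were nearly alike in anti-PD1 and anti-IgG CD4 cells, at 47.5 and 51.3 CPM, and in other Cd3+ cells, at 42.9 and 42.9. CD8 cells differed, with 145 anti-PD1 and 215 anti-IgG UMIs, 22.0 against 46.1 CPM, a ratio of 0.478 (0.384 to 0.592). CD8 cells with and without Ccl5, a chemokine of effector and memory cells, had ratios of 0.501 (0.360 to 0.695) and 0.474 (0.352 to 0.634). In cells thinned to 1000 UMIs, Tnfsf8 was found in 2.30% (1.54 to 3.28) of anti-PD1 and 4.26% (3.02 to 5.83) of anti-IgG CD8 cells. Over all Cd3+ cells the ratio was 0.732 (0.661 to 0.811). Gamma-delta cells had 7.50 and 8.29 CPM.

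Tnfsf9 encodes 4-1BB ligand, whose receptor is Tnfrsf9. Its UMIs were rare in lymphocytes and lay in few cells. In Cd3+ cells a UMI was found in 142 of 5013 anti-PD1 cells (2.83%) and 61 of 3759 anti-IgG cells (1.62%). Of the 213 anti-PD1 UMIs, 24 came from 1 cell of the other Cd3+ gate, and the Cd3+ ratio of 2.45 was 2.27 (1.71 to 3.06) without the top cell of each library. Thinned to 1000 UMIs per cell, the ratio was 1.501 (0.816 to 2.87), and the shares, 0.645% and 0.456%, did not differ beyond their intervals. CD4 cells had 50 anti-PD1 and 25 anti-IgG UMIs, a ratio of 2.23 (1.36 to 3.77) that was 0.861 (0.295 to 2.42) after thinning. Other Cd3+ cells had 91 and 21 UMIs, a ratio of 3.43 (2.12 to 5.81) that was 1.54 after thinning. The CD8 ratio was 2.58 (1.30 to 5.57) on 40 and 11 UMIs.

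Macrophage cells held the highest Tnfsf9 level, in the anti-PD1 library. The 111 anti-PD1 macrophage cells had 159 Tnfsf9 UMIs in 27 cells, or 259.7 CPM (221 to 303), and the 47 anti-IgG cells had 4 UMIs in 4 cells, or 13.8 CPM (3.76 to 35.3). The anti-IgG gate held fewer than the 50 cells asked of a comparison, so the values are given side by side. One anti-PD1 cell held 57 of the 159 UMIs and 5 cells held 106. Dendritic cells had 41 anti-PD1 UMIs in 10 of 118 cells and 3 anti-IgG UMIs in 2 of 102 cells, 36 of the 41 in 5 cells and 37 of them in the 29 cells without Siglech. Other ligands of the family also had UMIs in the macrophage gate: Tnf had 80 anti-PD1 and 6 anti-IgG UMIs, 130.7 and 20.7 CPM, and Tnfsf13, which encodes APRIL, had 22 and 9, or 35.9 and 31.0 CPM.

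**Figure D4:**
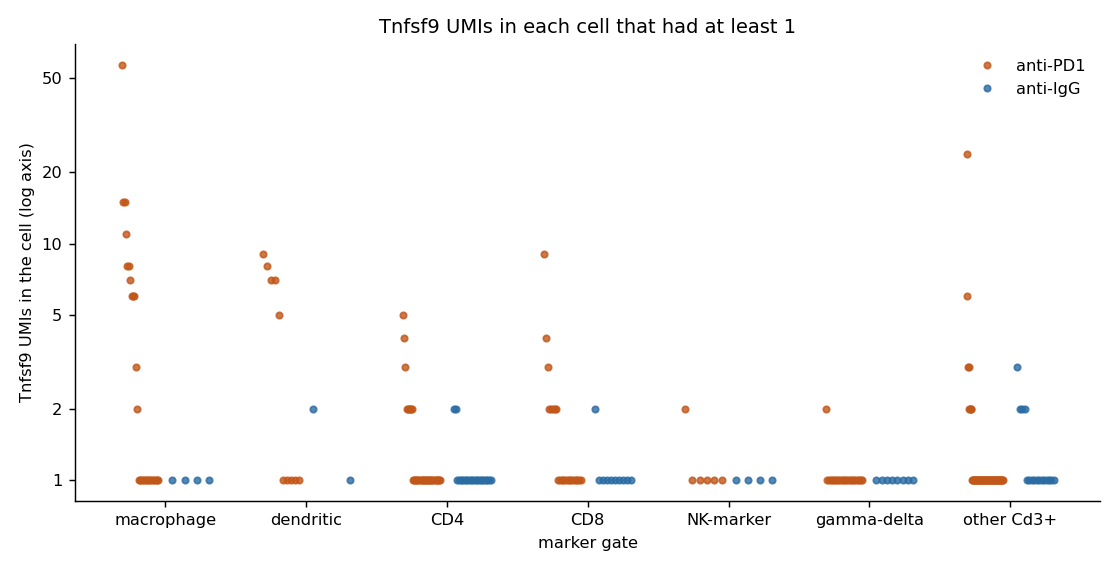
Tnfsf9 UMIs (y axis, log scale) in each cell that had at least 1, by gate (x axis), with anti-PD1 cells left of anti-IgG cells; each point is 1 cell. In the macrophage gate 1 anti-PD1 cell had 57 UMIs, and the 4 anti-IgG cells had 1 each.

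Tnfsf14 encodes LIGHT, which binds Tnfrsf14 (HVEM) and Ltbr. Gamma-delta cells had its highest level in both libraries, 44.7 CPM in anti-PD1 and 57.3 in anti-IgG, a ratio of 0.779 (0.589 to 1.04). CD4 cells had 72 anti-PD1 and 133 anti-IgG UMIs, a ratio of 0.604 (0.447 to 0.811), and other Cd3+ cells 73 and 89 UMIs, a ratio of 0.650 (0.470 to 0.896) that was 0.683 after thinning and 0.677 without the top cells, both inside 1.5-fold. CD8 cells had 12.77 and 12.01 CPM, a ratio of 1.06 (0.749 to 1.52). The lower CD4 level was seen in cells without Foxp3, at 13.2 against 23.5 CPM, while cells with Foxp3 had only 10 anti-PD1 and 6 anti-IgG UMIs.

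Among the 5 undivided T and NK-marker gates, Fasl, the ligand of the death receptor Fas, had its highest levels in NK-marker cells, 157 CPM in anti-PD1 and 164 in anti-IgG, and its lowest in gamma-delta cells, 6.85 and 6.91. CD8 cells had 768 anti-PD1 and 385 anti-IgG UMIs, 117 against 82.6 CPM, a ratio of 1.41 (1.25 to 1.60), inside the 1.5-fold limit. A Fasl UMI was found in 31.6% (29.1 to 34.3) of anti-PD1 and 24.1% (21.3 to 27.0) of anti-IgG CD8 cells. CD8 cells with Ccl5 had 191 and 146.5 CPM, a ratio of 1.30 (1.15 to 1.48), and CD8 cells without it had 16.1 and 7.91, a ratio of 2.04 (1.14 to 3.79) on 45 and 17 UMIs. CD4 cells (77.6 and 71.3 CPM) and other Cd3+ cells (85.0 and 86.4) did not differ beyond their intervals.

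Tnfsf10 encodes TRAIL, a death ligand that is also an interferon-stimulated gene, and whose death receptor in the mouse is Tnfrsf10b. NK-marker cells had its highest level, 50.9 anti-PD1 and 87.9 anti-IgG CPM. Their intervals overlapped those of the few endothelial cells, at 49.9 (16.2 to 116) and 59.0 (27.0 to 112) CPM. NK-marker cells had 56 anti-PD1 and 53 anti-IgG UMIs, a ratio of 0.579 (0.390 to 0.859). That ratio was 0.714 with each cell weighted alike, inside 1.5-fold, and 0.386 after thinning. CD4 cells had 93 and 170 UMIs, a ratio of 0.611 (0.469 to 0.791), and other Cd3+ cells 99 and 185, a ratio of 0.424 (0.329 to 0.544). In CD8 cells the ratio was 0.767 (0.619 to 0.95) and in gamma-delta cells 0.669 (0.385 to 1.18) on 34 and 24 UMIs. At 1000 UMIs per cell, 1.67% (1.33 to 2.07) of anti-PD1 and 2.77% (2.26 to 3.34) of anti-IgG Cd3+ cells had a Tnfsf10 UMI.

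Interferon-stimulated genes were also lower over all Cd3+ cells, and how many of them had enough UMIs differed between gates. Of 12 such genes in Cd3+ cells, 0 were higher and 8 were lower in the anti-PD1 library by at least 1.5-fold, beside 6.30% and 9.78% of all measured genes, with a median log2 ratio of -0.83 against -0.10 over all measured genes. Ifit1bl1 had a ratio of 0.309 (0.263 to 0.361) and Ifit3 one of 0.472 (0.425 to 0.524), while Irf7 and Isg15 lay inside 1.5-fold at 0.943 and 0.912. In other Cd3+ cells 8 of 11 were lower, with a median of -1.40, beside 10.8% of all measured genes, and in CD8 cells 2 of 11, with a median of -0.18, beside 7.35%. CD4 cells had 5 of 10 lower, beside 9.80%, and gamma-delta cells 5 of 7, beside 8.59%. In NK-marker cells, where the Tnfsf10 ratio was 0.579, only 3 of the 12 had enough UMIs. Of these 3, 0 were lower, with a median of 0.06, beside 10.1%, and the rest of the 12 could not be read there. Cells with UMIs of at least 2 of 8 interferon genes made up 241 of 5013 anti-PD1 and 365 of 3759 anti-IgG Cd3+ cells. Tnfsf10 stood at 50.6 and 58.4 CPM in them, a ratio of 0.866 (0.643 to 1.16), and at 18.7 and 30.0 in the remaining Cd3+ cells, a ratio of 0.623 (0.543 to 0.714). Their part in the Tnfsf10 ratio over all Cd3+ cells was not tested further.

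Lta and Ltb encode lymphotoxin alpha and beta, which form a membrane trimer that signals through Ltbr. Ltb was lower in the anti-PD1 library in all 5 lymphocyte gates. It had 11352 anti-PD1 and 11726 anti-IgG UMIs in Cd3+ cells, 504 against 657 CPM, a ratio of 0.768 (0.748 to 0.788). CD8 cells had 421 and 633 CPM, a ratio of 0.665 (0.631 to 0.700), and NK-marker cells 345 and 544, a ratio of 0.635 (0.546 to 0.738), both past 1.5-fold. CD4 cells had 472 and 630, a ratio of 0.750 (0.713 to 0.788), and gamma-delta cells 922 and 1078, a ratio of 0.855 (0.803 to 0.910). B cells had 651 and 627 CPM, a ratio of 1.04 (0.837 to 1.29) that was 0.694 with each cell weighted alike. After thinning to 1000 UMIs, Ltb was found in 35.6% (34.3 to 37.0) of anti-PD1 and 45.6% (44.0 to 47.2) of anti-IgG Cd3+ cells.

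The dendritic gate had 54 anti-PD1 and 32 anti-IgG Ltb UMIs, a ratio of 1.75 (1.11 to 2.80), which was 0.946 (0.554 to 1.62) with gates that asked for more marker genes. Lta had 259 and 211 UMIs in Cd3+ cells, 11.5 and 11.8 CPM, a ratio of 0.974 (0.809 to 1.17). In CD4 cells Lta had 53 and 97 UMIs, a ratio of 0.610 (0.428 to 0.861) that was 0.679 with stricter gates, inside 1.5-fold. Its highest level was in gamma-delta cells, 28.4 and 22.1 CPM, with overlapping intervals; in the anti-IgG library that level and the 15.7 CPM of CD4 cells did not differ beyond their intervals. Tnf, the gene between Ltb and Lta, had 949 and 757 UMIs in Cd3+ cells, a ratio of 0.994 (0.903 to 1.10). The Tnf and Lta intervals overlapped, while the Ltb ratio in Cd3+ cells was 0.768 (0.748 to 0.788).

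Taken over all gates, a Cd3+ cell held UMIs of fewer of the 9 ligands in the anti-PD1 library. Ltb weighs heavily in this count, as it alone was found in 3537 of 5013 anti-PD1 and 3136 of 3759 anti-IgG Cd3+ cells. Its part in the gap was not tested. At least 1 ligand was found in 83.2% of anti-PD1 and 92.1% of anti-IgG Cd3+ cells, and a cell held on average 1.495 and 1.767 of the 9. At 1000 UMIs per cell the shares were 49.5% and 57.8%. The gap was smallest in gamma-delta cells, at 61.1% and 65.0% after thinning. Before thinning, a gamma-delta cell held on average 1.495 anti-PD1 and 1.487 anti-IgG ligands.

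Among other ligands of the family, Tnf alone of 9 genes reached 50 summed UMIs in Cd3+ cells. Tnfsf4, which encodes OX40 ligand, had 21 anti-PD1 and 0 anti-IgG UMIs there, under the 50 asked of a comparison.

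Tnfrsf1b, Tnfrsf9 and Tnfrsf10b, receptors of the ligands, were higher in anti-PD1 Cd3+ cells. Of 13 receptor genes 9 had enough UMIs, 3 higher and 1 lower in the anti-PD1 library by at least 1.5-fold, beside 6.30% and 9.78% of all measured genes, with a median log2 ratio of 0.22 against -0.10 over all measured genes. Tnfrsf1b (TNFR2, a receptor of TNF and of lymphotoxin alpha) had 4526 anti-PD1 and 1009 anti-IgG UMIs, a ratio of 3.56 (3.32 to 3.81), and its ratios within the 5 gates ran between 2.98 in CD4 and 4.43 in NK-marker cells. Tnfrsf9, the 4-1BB receptor, had 2005 and 771 UMIs, a ratio of 2.06 (1.90 to 2.24). Within gates its ratio was 5.98 (4.13 to 8.91) in CD8 cells, 4.74 (3.08 to 7.63) in gamma-delta cells, 2.11 (1.87 to 2.39) in CD4 cells and 1.58 (1.36 to 1.83) in other Cd3+ cells, and whether the gates differ was not tested. Tnfrsf10b, the TRAIL receptor, had 325 and 141 UMIs, a ratio of 1.83 (1.496 to 2.24). Tnfrsf14 had 198 and 240 UMIs, a ratio of 0.654 (0.539 to 0.793), and Fas had 614 and 526, a ratio of 0.926 (0.823 to 1.04).

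Tnfrsf11a and Cd40, the receptors that signal for Tnfsf11 and Cd40lg, were sparse in Cd3+ cells and were found in other gates. Tnfrsf11a had 17 anti-PD1 and 15 anti-IgG UMIs in Cd3+ cells, and 28 and 27 UMIs in the far fewer macrophage cells, 45.7 and 93.1 CPM. Tnfrsf11b had 0 UMIs in Cd3+ and macrophage cells of either library. It had 0 anti-PD1 and 6 anti-IgG UMIs in the few endothelial cells, and 5 and 0 in the few fibroblast cells. Cd40 had 8 and 8 UMIs in Cd3+ cells. It stood highest in B cells, with 25 anti-PD1 and 13 anti-IgG UMIs, 67.8 and 60.9 CPM, and had 30 and 2 UMIs in macrophage cells, 49.0 and 6.90 CPM, and 8 and 15 in dendritic cells. Ltbr had 7 and 1 UMIs in Cd3+ cells, 33 and 19 in macrophage cells, and 33 and 41 in dendritic cells, a dendritic ratio of 0.836 (0.512 to 1.36). Endothelial cells had 10 and 13 Ltbr UMIs, 99.75 and 85.28 CPM, against 53.91 and 65.51 CPM in macrophage cells. Fibroblast cells had 8 and 12, or 44.37 and 71.01 CPM.

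**Figure D5:**
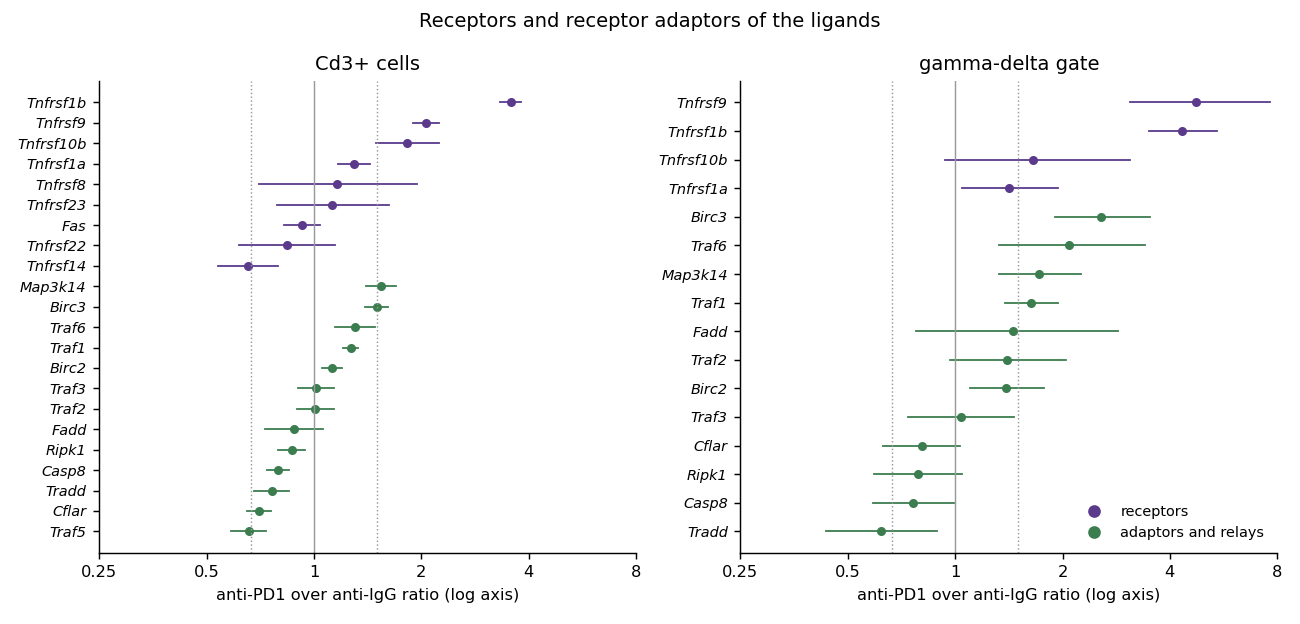
Ratio of CPM, anti-PD1 over anti-IgG (x axis, log scale), for receptors (purple) and receptor adaptors (green) with at least 50 summed UMIs in Cd3+ cells and in the gamma-delta gate; bars are exact 95% counting intervals and dotted lines mark 1.5-fold. Tnfrsf1b and Tnfrsf9 lay furthest to the right in both panels.

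The adaptors and relays below these receptors were closer to even. All 13 had enough UMIs in Cd3+ cells, with 1 higher and 1 lower beside the same 6.30% and 9.78%, and a median log2 ratio of 0.01. Map3k14, the NF-kappaB inducing kinase NIK, had a ratio of 1.54 (1.40 to 1.70) and Traf5 one of 0.656 (0.585 to 0.734). In gamma-delta cells 4 of 12 were higher and 1 was lower, beside 7.04% and 8.59% of all measured genes. These were Birc3, which encodes the ubiquitin ligase cIAP2, at 2.57 (1.91 to 3.51), Traf6 at 2.09 (1.33 to 3.40), Map3k14 at 1.72 (1.33 to 2.25) and Traf1 at 1.63 (1.38 to 1.94), and, on the lower side, Tradd at 0.619 (0.434 to 0.886).

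The genes most like each ligand over gates and libraries were read as a description, from the Pearson r of log2(CPM + 10) over 15 gate-by-library values that share depth and cell mix. Fasl was closest to Ifng (r = 0.995), the gene of interferon gamma. Tnfsf11 was closest to Hif1a (0.910), Areg (0.886) and Nrip1 (0.874), and no gene came nearer. Cd40lg was closest to a receptor segment, Trav4-4-dv10 (0.971), then to Foxp3 (0.965) and Izumo1r (0.963). This likeness is between gates, not cells. Within the CD4 gate, Cd40lg stood lower in cells with a Foxp3 UMI, at 37.0 anti-PD1 and 49.9 anti-IgG CPM. Cells without one had 125.9 and 140.5 CPM. Tnfsf9 was closest to Mt2 (0.964), 5330406M23Rik (0.962) and Ccl7 (0.960), and Tnfsf10 to Brca1 (0.964). Ltb was closest to Nfatc3 (0.975), Tnfsf14 to Akr1c13 (0.971), Tnfsf8 to Vmn2r97 (0.970) and Lta to Gabbr1 (0.923). Between members the highest values were 0.872 for Cd40lg with Tnfsf8 and for Tnfsf8 with Fasl.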

How the data were processed

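Heart cells were obtained by enzymatic digestion, with red cells, dead cells and debris removed, per the labels' protocols; the series design speaks of a sort, which those protocols leave out. The authors deposited UMI counts per gene for every called cell, not normalized. Cell Ranger 7.1.0 stands in the file headers, and 7.2.0, with Seurat 4.4.0 and mm10, in the submitters' processing notes. A 3′ kit is named in the labels; the barcodes start like those of a different kit version, and this could not be checked here.

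The members, gates, lists and tests were chosen with earlier results of these data known. Gates used raw UMIs, in order, on cells without Cd3 UMIs: macrophage (at least 3 of 10 markers, and more of them than dendritic ones), dendritic (3 of 12), B (2 of 4). Cells with NK markers (2 of 6) came next, then gamma-delta (Cd3, 2 of 6 markers, no coreceptor UMI), CD4 and CD8 (Cd3 and UMIs of 1 coreceptor). UMIs were summed per gate and divided by the gate total. Levels carry exact Poisson, shares exact Clopper-Pearson and ratios exact conditional 95% intervals, all for counting error only. A ratio was called past 1.5-fold with at least 50 summed UMIs and 50 cells per library. Thinning drew 1000 UMIs from each cell and left out shallower ones, 51 anti-PD1 and 34 anti-IgG Cd3+ cells. The ratio step was tested on simulated data. All 9 members are named; other genes come from the lists, for ratios past the fold or as receptors, and from likeness among genes with at least 200 summed UMIs. Tnf, Tnfsf4 and Tnfsf13 were also named from the lists, though they were neither called past the fold nor receptors. Beside those, Ifit3, Irf7, Isg15 and genes of co-occurrence were named with their values seen. Some genes are not reported here.

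Doublets were not removed: cells with markers of 2 lineages were kept out, and the highest Scrublet scores were removed as an alternative, since its automatic threshold marked 4 anti-PD1 and 0 anti-IgG cells. Ribosomal RNA took 6.95% of anti-PD1 and 5.42% of anti-IgG UMIs of Cd3+ cells. Work used Python 3.11.15, numpy 2.4.6, scipy 1.17.1, pandas 2.3.3, scanpy 1.11.5 and matplotlib 3.10.9.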

Additional observations from a re-analysis of the deposited data

Results flagged for a closer look

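The anti-PD1 over anti-IgG ratio of Cd40lg was 4.01 in gamma-delta cells, against 0.872 in CD4 cells and 0.791 in other Cd3+ cells. It was picked out because the gates lay on opposite sides of 1, and the difference between the gates was not tested.

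Tnfsf9 in the macrophage gate, which had too few anti-IgG cells for a comparison, stood at 259.7 CPM (UMIs per 1000000) in the anti-PD1 library and 13.8 in the anti-IgG library, and was picked out as a signal outside the compared gates. No replicate bears on either value.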

How the results depend on the processing

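No paired analysis was possible because each group is 1 library. Of 81 alternative values of the 9 ratios in Cd3+ cells, 74 stayed inside the counting interval of the value reported and 7 moved outside it. Of the 81, 2 lay on the other side of 1 from that value, both of Lta (1.22 thinned, 1.05 scaled to the median gene), whose reported ratio was inside 1.5-fold. Tnfsf11 (2.16 to 2.56), Tnfsf9 (1.501 to 2.63) and Tnfsf10 (0.577 to 0.660) were past 1.5-fold in all 9 alternatives each. With the gate mix held alike the ratios were 0.869 for Cd40lg, 0.819 for Tnfsf8 and 0.742 for Ltb. Scaled to the median gene they were 1.199 for Fasl and 0.825 for Ltb. Thinned to 1000 UMIs per cell they were 1.501 for Tnfsf9 and 1.22 for Lta.

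Within gates, 246 of 262 alternative values stayed inside the interval. In all, 22 of the 262 lay on the other side of 1, among them Ltb in B cells (0.694 with each cell weighted alike) and Lta in other Cd3+ cells (1.94 thinned). Of these, 2 belonged to ratios reported past 1.5-fold: Tnfsf9 in CD4 cells was 0.861 when thinned, which leaves few UMIs, and Ltb in dendritic cells was 0.946 with stricter gates. The cause was not tested. Stricter gates gave no value for the NK-marker gate, and thinning none for Cd40lg in gamma-delta cells, where 0 anti-IgG UMIs remained. The number of genes past 1.5-fold in Cd3+ cells was 755 higher and 1171 lower, 463 and 606 with at least 200 summed UMIs, 4061 and 5555 with at least 1, and 965 and 813 when scaled to the median gene, which had a ratio of 0.931. Leaving out the top cell of each library and this last count were chosen after seeing the data. With 1 library per group and sparse genes, differences inside the intervals were not detectable at this depth.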

Other observations

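The Cd3 cells that also carried markers of another lineage, which were kept out of the gates, held 16.1% of anti-PD1 and 36.6% of anti-IgG Tnfsf9 UMIs, beside 13.2% and 12.8% of all UMIs. These Tnfsf9 UMIs lay in few cells: 5 cells held 40 of 81 anti-PD1 UMIs, and 5 held 36 of 45 anti-IgG UMIs. Tnfsf11 in these cells had 93 anti-PD1 and 23 anti-IgG UMIs, a ratio of 3.11 (1.95 to 5.15). Ltb stood at 370.3 and 419 CPM there, a ratio of 0.883 (0.817 to 0.955), and Lta had 47 and 17 UMIs, a ratio of 2.13 (1.20 to 3.95). For Lta, 5 cells held 24 of the 47 anti-PD1 UMIs and 5 held 7 of the 17 anti-IgG UMIs.

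Few endothelial cells were present, 25 anti-PD1 and 41 anti-IgG, and they were not compared. Tnfsf10 had 5 and 9 UMIs in them, 49.9 (16.2 to 116) and 59.0 (27.0 to 112) CPM. Tnfsf9 had 5 anti-PD1 UMIs, all in 1 cell, and 0 anti-IgG UMIs. The other 7 ligands had 0 in both libraries, where 3 counts, the floor used for counts of 0, come to 29.9 and 19.7 CPM.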
